A study of Mus musculus with 23 samples.

Results

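The 33 genes described here carry out or control de novo lipogenesis and triglyceride synthesis, the making of fatty acids from acetyl-CoA and their assembly onto glycerol. They were chosen by gene symbol, and each was found once in both deposited expression tables. They are 33 of the 22852 genes listed in both tables. The data are bulk liver RNA sequencing of 23 mice, with 5 males and 6 females as controls and 6 of each sex as LKO. The series title names ablation of Cpt1a in the liver, which the label LKO marks. Cpt1a encodes carnitine palmitoyltransferase 1a, which lets long-chain fatty acids enter mitochondria for oxidation. Per the labels, every animal of every group, controls included, carried the B100 background, had eaten WD, a diet not further described there, over 16 weeks and was fed at necropsy. The alleles behind B100, the driver of the ablation and the ages are not given in the sources used here. Samples are named by group and by the replicate number of the labels. The control males used here are replicates 1, 2, 3, 4 and 6. Where the values of all 5 control males are listed, mostly from lowest to highest, their order does not give the replicate number. Nothing in the labels says more about how the mice were obtained, so p-values measure the spread between these samples.

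Fatty acid synthesis starts when citrate leaves the mitochondrion and is cleaved to cytosolic acetyl-CoA, which acetyl-CoA carboxylase turns into malonyl-CoA. Malonyl-CoA is the building block of fatty acid synthase, and it also inhibits Cpt1a, so the pathway and the ablated enzyme meet at this metabolite. New fatty acids are elongated and desaturated, then joined to glycerol phosphate by acyltransferases, dephosphorylated by lipins and acylated a final time by diacylglycerol acyltransferases. In liver the pathway is driven by SREBP-1c, the insulin-responsive product of Srebf1, and by ChREBP, the sugar-responsive product of Mlxipl.

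Levels are given as CPM, read counts over library totals scaled by TMM factors across all 23 libraries, whose totals ran from 14224665 to 19626662 counts. A log2 change is LKO minus control within a sex, from edgeR's quasi-likelihood test, and a gene was called at a Benjamini-Hochberg adjusted p under 0.05 over all genes tested. Cpt1a ran from 301 to 425 CPM in control males and from 41.7 to 95.8 CPM in LKO males. It ran from 287 to 436 CPM in control females and from 62.3 to 87.6 CPM in LKO females, so that no LKO library reached any control library. Its log2 change was -2.50 (SE 0.19, adjusted p = 9.99e-05) in males and -2.35 (SE 0.12, adjusted p = 3.69e-08) in females. The summed level of 6 hepatocyte markers was 55587 to 104136 CPM across all libraries. Its median was 71106 CPM in control males, 61840 in LKO males, 88981 in control females and 81734 in LKO females. The genotypes overlapped in both sexes, and none of the 6 markers was called. Of 5 listed markers of fat tissue, the defining Adipoq, Plin1, Lep and Retn never exceeded 1.52 CPM. The other listed marker, Cfd, ran from 1.2 to 45.4 CPM in control males and from 3.95 to 25.5 CPM in LKO males. In females Cfd was at most 3.28 CPM. Control female 2 was the highest of its group for 16 of the 33 members, and control male 4 was the lowest of its group for 19. LKO male 5 was the lowest of its group for 15 members and LKO female 6 for 12, while LKO female 3 was the highest for 13. For members refitted without each library, female changes over 0.1 in size are also given without any library that moved them by over 1.5 times or changed their call. In bulk tissue, fewer cells of a type and less RNA per cell cannot be told apart.

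In females 2 members were called, Gpat3, which rose, and Acss2, which fell. They are 2 of the 32 members tested, beside 1.42% of all 13684 genes tested (0.928% higher and 0.49% lower in LKO mice). In males none of the 33 members was called, where 0.00724% of all genes tested were. The only gene called in males was Cpt1a itself. An unadjusted p under 0.05 was found for 13 members in females, 4 with higher and 9 with lower values in LKO mice, beside 15.6% of all genes (8.3% higher and 7.33% lower). In males it was found for 2 members, Lpin3 and Aacs, beside 12.5% of all genes.

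**Figure D1:**
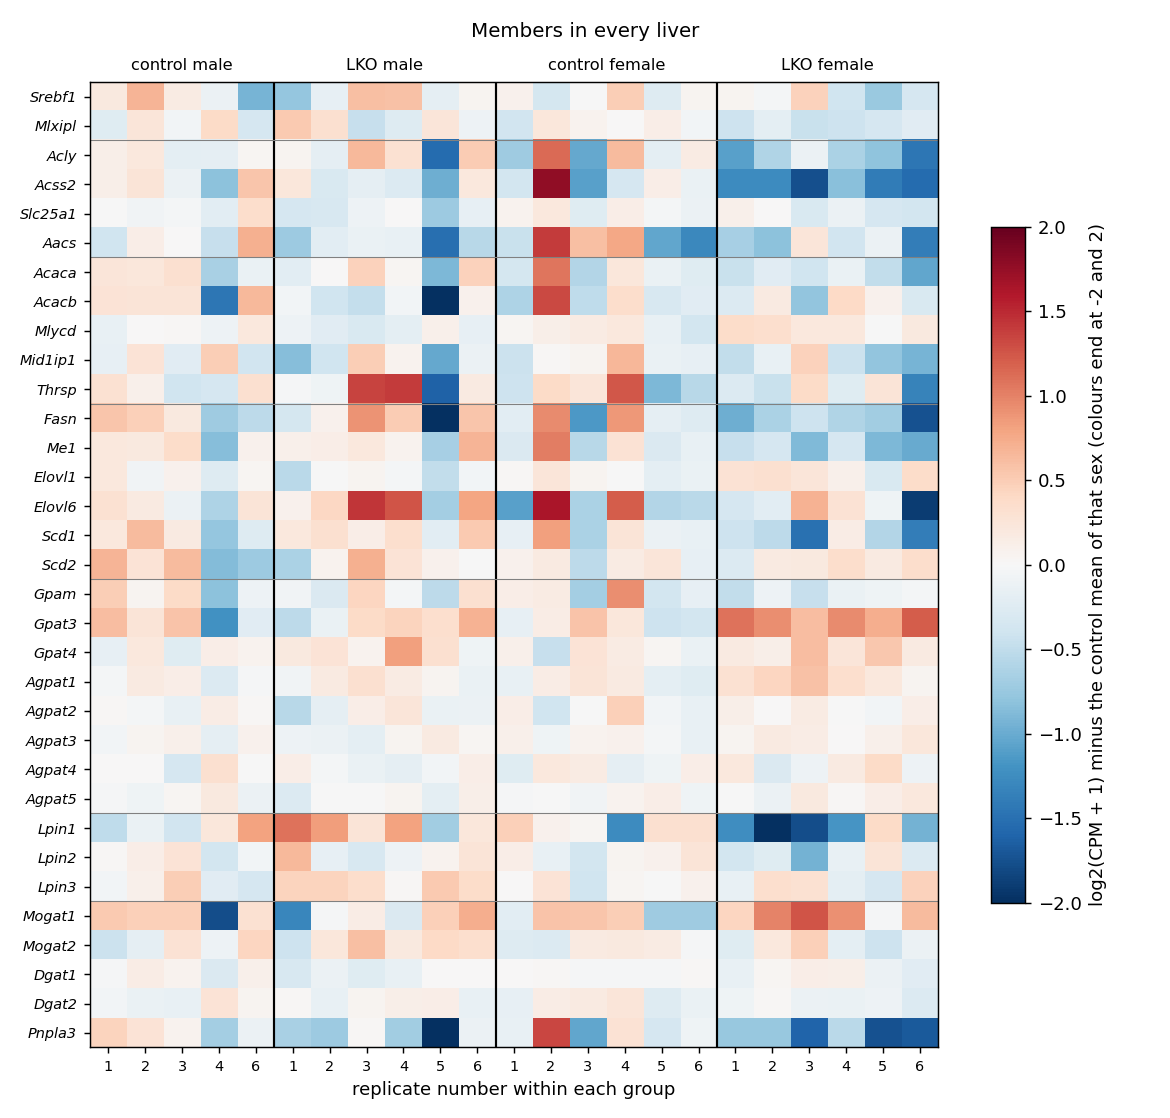
Heat map of the 33 members (rows, grouped by role) in the 23 livers (columns, by group and replicate number), coloured by log2(CPM + 1) minus the mean of the control mice of that sex, with colours ending at -2 and 2. Gpat3 is above the control mean in all 6 LKO females and Acss2 below it in all 6, and control female 2 stands out as high for Acss2, Elovl6, Aacs and Acly.

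The promoters of 4 members are shown because Gpat3 and Acss2 were the called members, and Pnpla3 and Fasn are lipogenic genes whose female values lay in the same direction as those of Acss2. Capitals mark matches to CCAAT or its reverse complement, the box bound by NF-Y, a factor that works beside SREBP at many lipogenic promoters. Each is the stretch of 250 bases before the annotated start, 5′ to 3′ on the strand of the gene, from RefSeq promoters on GRCm38.p6. Those of Acss2 (chr2:155517793-155518042), Pnpla3 (chr15:84167566-84167815) and Gpat3 (chr5:100845979-100846228) are on the plus strand and that of Fasn (chr11:120824548-120824797) is on the minus strand.
Acss2: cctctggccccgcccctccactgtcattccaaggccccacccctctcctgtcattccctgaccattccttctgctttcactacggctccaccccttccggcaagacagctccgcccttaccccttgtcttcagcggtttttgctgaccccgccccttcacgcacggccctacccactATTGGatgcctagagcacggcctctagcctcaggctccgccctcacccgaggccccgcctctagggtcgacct
Pnpla3: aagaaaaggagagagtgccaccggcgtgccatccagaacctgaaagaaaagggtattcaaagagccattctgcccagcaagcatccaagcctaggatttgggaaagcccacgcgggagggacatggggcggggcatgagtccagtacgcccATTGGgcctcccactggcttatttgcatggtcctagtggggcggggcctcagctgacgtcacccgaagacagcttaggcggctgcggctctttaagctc
Fasn: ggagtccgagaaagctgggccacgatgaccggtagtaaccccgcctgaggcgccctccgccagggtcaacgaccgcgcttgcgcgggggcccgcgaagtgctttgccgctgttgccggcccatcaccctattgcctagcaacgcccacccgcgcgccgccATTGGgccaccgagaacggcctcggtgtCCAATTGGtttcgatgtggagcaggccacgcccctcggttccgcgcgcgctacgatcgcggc
Gpat3: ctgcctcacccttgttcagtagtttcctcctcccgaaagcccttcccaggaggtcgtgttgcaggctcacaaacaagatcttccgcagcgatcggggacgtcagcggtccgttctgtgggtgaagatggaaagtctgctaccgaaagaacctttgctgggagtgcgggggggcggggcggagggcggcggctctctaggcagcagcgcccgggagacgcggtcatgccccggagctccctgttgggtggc
The stretch before Acss2 held 1 such box, that before Pnpla3 held 1, and that before Fasn held 3, of which a pair overlaps on opposite strands. The stretch before Gpat3 held none. RefSeq promoters matched 26 of the 33 members, with 36 windows. Of these windows 16 held the NF-Y box, belonging to 15 members, beside 33.8% of all 32851 promoter windows of that length. Among the members with the box, Elovl1, Mlycd, Agpat1 and Agpat4 had positive log2 changes in females. Srebf1, Mlxipl, Acss2, Slc25a1, Acacb, Thrsp, Me1, Fasn, Pnpla3, Gpam and Lpin2 had negative ones. The 4 printed promoters were chosen by the values of their genes. No box was found for Lpin1, Acly, Aacs or Scd1, which also had negative changes in females, nor for Gpat4 or Mogat1, which had positive ones. Members without a RefSeq window could not be searched. Whether the box goes with the direction of change was not tested. The sterol regulatory element core TCACNCCAC was in 1 member window, that of Mlxipl, beside 1.05% of all windows. The E-box CACGTG was in 3 member windows, those of Mlxipl, Slc25a1 and Lpin2, beside 6.02% of all windows. The carbohydrate response element was searched as the arm CACGNG, a spacer and the looser arm CNCGNG, arms that an E-box can also match. It was in 0 member windows, beside 0.28% of all. All motifs were searched on both strands. A match describes the letters only, and the searched stretch is short.

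Levels per length, as median CPM per kilobase over the 11 control mice, set the scale of the pathway. Scd1, the stearoyl-CoA desaturase of hepatocytes, stood first at 2616 CPM per kilobase, 8.24 times the next member. Thrsp followed at 318 and Dgat2 at 299 CPM per kilobase, a pair whose ranges across control mice overlapped. At the other end were Agpat4 at 0.91 and Mogat2, an intestinal monoacylglycerol acyltransferase, at 0.26 CPM per kilobase. Fasn stood at 54.2, Acly at 33.6, Acss2 at 11.3, Acaca at 6.25 and Gpat3 at 3.61 CPM per kilobase.

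The regulators come first. Srebf1, which encodes SREBP-1, measured 843, 1178, 823, 679.8 and 383 CPM in the control males, and 428 to 1114 CPM with a median of 709 in LKO males. In females its lowest, median and highest values were 697, 901 and 1257 CPM in controls and 529.7, 784 and 1228 CPM in LKO mice. The groups overlapped over most of their range in both sexes. The log2 change of Srebf1 was 0.01 (SE 0.28, adjusted p = 0.995) in males and -0.14 (SE 0.18, adjusted p = 0.773) in females. The female value was -0.03 without control female 4, -0.30 without LKO female 3, -0.09 without LKO female 4 and -0.04 without LKO female 5.

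Mlxipl, the gene of ChREBP, lay at 211, 226, 258, 319 and 351 CPM in the control males, against 194 to 387 CPM with a median of 283 in LKO males. Control females ran from 274 CPM through a median of 370.1 to 420.4 CPM, and LKO females from 265 through 278 to 314 CPM. All 6 LKO females were under the control female median and 3 were under every control female, although control female 1 at 274 CPM lay inside the LKO range. In females the log2 change was -0.35 (SE 0.10), with an adjusted p of 0.0905 by edgeR and 0.0172 by DESeq2, and 0.06 (SE 0.18) in males. Mlxipl was thus called in females by DESeq2 and not by edgeR, except that edgeR called it without control female 1 (-0.41, adjusted p = 0.034).

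Of the 4 members that supply cytosolic acetyl-CoA, all 4 had negative log2 changes in females and 1 was called. Acss2 encodes the cytosolic acetyl-CoA synthetase, which activates acetate, and lies on chromosome 2 from 155359868 to 155427644 in the coordinates of the tables. In control females its level was 505 CPM in replicate 2 and 68.6 to 161 CPM in the other 5, with a median of 124 CPM. In LKO females it ran from 42.8 CPM through a median of 57.8 to 81.7 CPM. All 6 LKO females were under the control female median and 5 were under every control female, the exception being LKO female 4 at 81.7 CPM. Acss2 fell by 1.65 on the log2 scale in LKO females (SE 0.38, adjusted p = 0.0488). Without control female 2 the log2 change was -1.02 and the adjusted p 0.0215, so the call held there and the size of the change was smaller. The call was lost without control female 1, 5 or 6 or without any LKO female, with adjusted p from 0.0606 to 0.11. It was also lost with library size alone as the scaling (adjusted p = 0.055) and with at least 10 counts in every sample (adjusted p = 0.0509).

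In males Acss2 measured 112, 123, 94.1, 57.9 and 151 CPM in the controls and 51.5 to 119.6 CPM, median 87.4, in LKO mice. These groups overlapped, and the log2 change was -0.24 (SE 0.24, adjusted p = 0.739). The female change minus the male change was -1.41 (SE 0.50, unadjusted p = 0.00917, adjusted p = 0.268), so a difference between the sexes in the response of Acss2 did not pass the test over all genes. Without control female 2 this difference was -0.78 (adjusted p = 0.352).

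Acly, the ATP citrate lyase that cleaves citrate, had 97.2, 199 and 436 CPM as its lowest, median and highest values in control females and 72.4, 121 and 183 CPM in LKO females. The highest control was again replicate 2, and all 6 LKO females were under the control median. The log2 change was -0.92 (SE 0.32, adjusted p = 0.169) and -0.62 without control female 2. In males the control values were 151, 152, 177, 187 and 198 CPM, and the LKO values surrounded them, from 58.3 CPM in replicate 5 to 269 CPM in replicate 3 with a median of 196. The male log2 change of Acly was 0.10 (SE 0.28).

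Slc25a1, the carrier that exports citrate from mitochondria, measured 386, 427, 437, 445 and 572 CPM in control males and 270.3, 381 and 454 CPM (lowest, median, highest) in LKO males. In females the same 3 values were 278, 333 and 379.7 CPM in controls and 255, 286 and 353 CPM in LKO mice. The groups overlapped in both sexes, with log2 changes of -0.27 (SE 0.13) in males and -0.17 (SE 0.11) in females. Averaged over the sexes the change was -0.22 (SE 0.09, unadjusted p = 0.0187, adjusted p = 0.244).

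Aacs, acetoacetyl-CoA synthetase, turns acetoacetate into a cytosolic precursor of lipids and was chosen for its values after they were seen. It measured 131, 136, 182, 197 and 295 CPM in control males and 62.5, 138 and 164 CPM (lowest, median, highest) in LKO males. In females the same 3 values were 30.7, 86 and 204 CPM in controls and 28.9, 53.4 and 91.2 CPM in LKO mice. The groups overlapped in both sexes. The log2 changes were -0.55 (SE 0.25, adjusted p = 0.396) in males and -0.76 (SE 0.41, adjusted p = 0.396) in females, and without control female 2 the female value was -0.39.

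Of the 5 members around malonyl-CoA, 1 had a positive and 4 had negative log2 changes in females, and none was called in either sex. Acaca, the acetyl-CoA carboxylase whose malonyl-CoA feeds synthesis, measured 74.1, 107, 137, 139 and 147 CPM in control males and 62.4, 119.5 and 163 CPM (lowest, median, highest) in LKO males. Control females lay at 73 to 129 CPM apart from replicate 2 at 230.5 CPM, and LKO females ran from 52.7 CPM through a median of 81.8 to 100.4 CPM. The groups overlapped in both sexes. The log2 change of Acaca was 0.00 (SE 0.23) in males and -0.55 (SE 0.24, adjusted p = 0.292) in females, where it was -0.24 without control female 2.

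Mlycd encodes malonyl-CoA decarboxylase, which removes malonyl-CoA and so acts against synthesis, and it too was chosen after its values were seen. Control males measured 162, 167, 179, 182 and 207 CPM and LKO males 145 to 192 CPM with a median of 158. Control females ran from 119 through 161 to 177 CPM and LKO females from 153 through 177 to 198 CPM, with 4 LKO females above every control female. Its log2 change was -0.15 (SE 0.09) in males and 0.21 (SE 0.10) in females, adjusted p of 0.522 and 0.33. The difference between these changes, females minus males, was 0.36 (SE 0.14, unadjusted p = 0.0146, adjusted p = 0.291).

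The other 3 members of this group were Acacb, the carboxylase isoform at the mitochondrial surface, Thrsp, and its paralog Mid1ip1, which promotes polymerisation of acetyl-CoA carboxylase. Acacb was highest in control female 2 at 379 CPM, against 98.1 to 192 CPM in the other control females and 87 to 197 CPM in LKO females. Thrsp spread widely in LKO males, from 209 CPM in replicate 5 to 1709 CPM in replicate 4. Mid1ip1 ran from 36.7 to 79.7 CPM in control females and from 25.9 to 69.3 CPM in LKO females. None of the 3 separated the genotypes in either sex.

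Of the 6 members for chain synthesis, elongation, desaturation and NADPH, 2 had positive and 4 had negative log2 changes in females, with 0 called. Fasn, the fatty acid synthase, measured 517, 593, 973, 1181 and 1252 CPM in control males. LKO males spanned a wider range, from 209 CPM in replicate 5 through a median of 1050.1 to 1578 CPM in replicate 3. Control females ran from 279 CPM through a median of 544 to 1198 CPM, with replicates 2 and 4 at 1198 and 1133 CPM, and LKO females from 186 through 393 to 469 CPM. All 6 LKO females were under the control female median, but only 1 was under every control female. The log2 change of Fasn was 0.10 (SE 0.40) in males and -0.96 (SE 0.31, unadjusted p = 0.00714, adjusted p = 0.139) in females. Without control female 2 the female change was -0.74.

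Scd1 desaturates stearate to oleate. It measured 8997, 12798, 17489, 17784 and 23959 CPM in control males and 13288, 18539 and 22197 CPM (lowest, median, highest) in LKO males. In females the same 3 values were 7859, 11094 and 21429.6 CPM in controls and 4313, 8310.2 and 13508 CPM in LKO mice. LKO females 3 and 6 lay under every control female, and the rest overlapped the controls. Scd1 had log2 changes of 0.16 (SE 0.22) in males and -0.67 (SE 0.28, unadjusted p = 0.0289, adjusted p = 0.257) in females. It was -0.47 in females without control female 2.

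Elovl6, which elongates palmitate to stearate, spread widely within groups. Control females measured 56.5 CPM at the lowest, 81.2 at the median and 376 CPM in replicate 2, and LKO females 31.7, 109 and 195 CPM. Control males measured 57, 80.8, 99.8, 105 and 108 CPM, and LKO males ran from 54.3 CPM in replicate 5 through 135 to 239 CPM in replicate 3. Elovl6 had log2 changes of 0.68 (SE 0.32, unadjusted p = 0.0516, adjusted p = 0.404) in males and -0.47 (SE 0.48, adjusted p = 0.698) in females. The female median was higher in LKO mice than in controls although the fitted change was negative, and the fitted change was -0.01 without control female 2, -0.23 without control female 4 and -0.28 without LKO female 6.

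Me1, malic enzyme, supplies NADPH to the synthase and was chosen after its values were seen. Control females measured 144 to 259 CPM apart from replicate 2 at 432 CPM, and LKO females measured 105 to 169.5 CPM with a median of 135. All 6 LKO females were under the control female median and 3 were under every control female. In females the fitted change was -0.73 (SE 0.24) on the log2 scale, with an adjusted p of 0.138 by edgeR and 0.0407 by DESeq2, and -0.45 without control female 2. In males the controls measured 134, 258, 280.4, 282 and 313 CPM and the LKO mice 154 to 390.0 CPM with a median of 265, a log2 change of 0.08 (SE 0.23).

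Elovl1 makes very long saturated chains. It measured 53.5, 61.1, 65.8, 68 and 74.9 CPM in control males, 43.9 to 66.6 CPM in LKO males, 31 to 42.5 CPM in control females and 28.6 to 46.1 CPM in LKO females. The genotypes overlapped in both sexes, with log2 changes of -0.18 (SE 0.13) in males and 0.18 (SE 0.11) in females. The sixth gene of the group, Scd2, was low in every library, at 3.69 to 12.9 CPM.

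**Figure D2:**
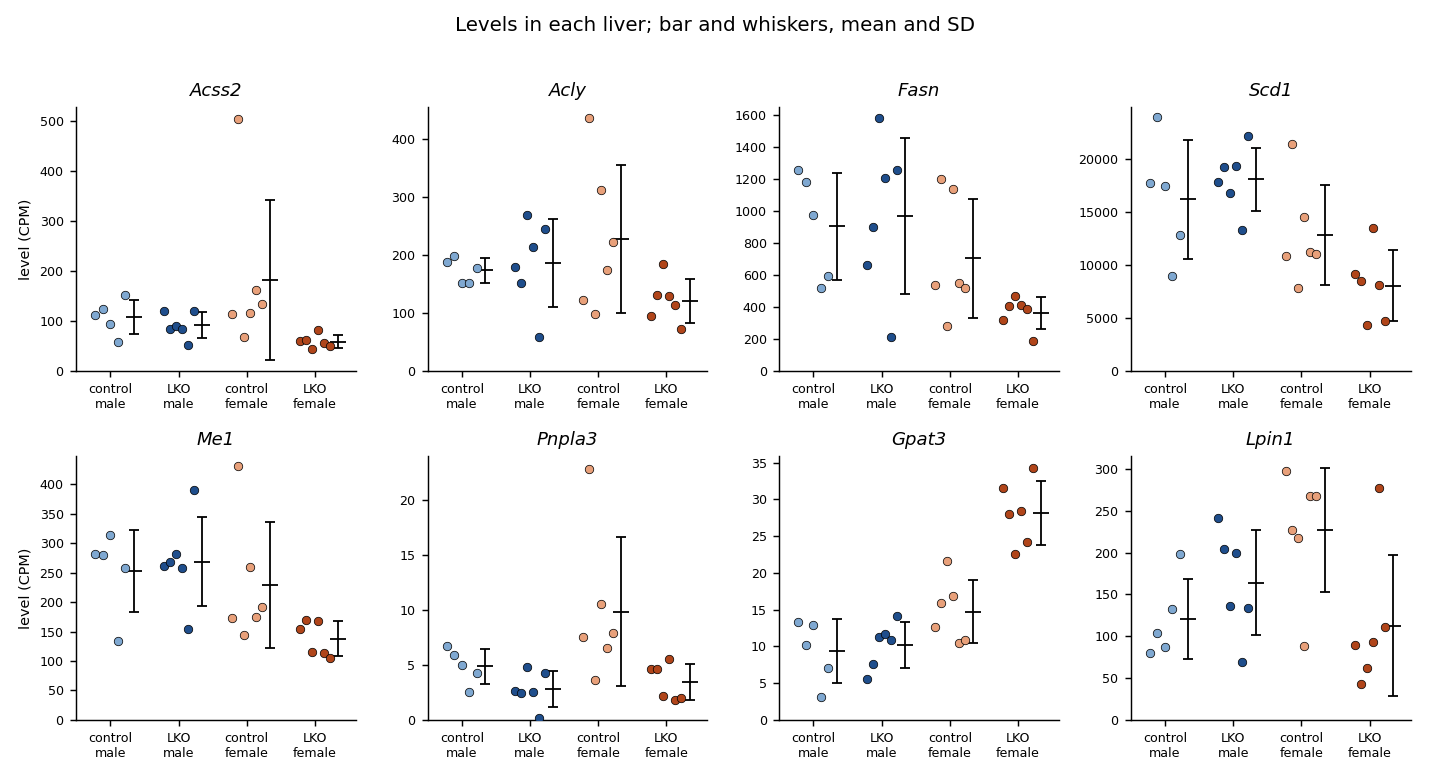
CPM of 8 members in each liver, on linear axes that start at 0, with 1 point per mouse, the 4 groups side by side, and the mean and SD of each group as bar and whiskers. The 6 LKO females lie above all 6 control females for Gpat3, and control female 2 stands apart from its group for Acss2 at 505 CPM.

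The glycerol-phosphate acyltransferases and the acylglycerol-phosphate acyltransferases, which place the first and the second fatty acid on glycerol phosphate, form a group of 8 members. In females 7 of these 8 had positive log2 changes and 1 was called, and in males 3 of 8 had positive changes and 0 were called. Gpat3 encodes a glycerol-phosphate acyltransferase of the endoplasmic reticulum and lies on chromosome 5 from 100993579 to 101046968 in the coordinates of the tables. Control females ran from 10.4 CPM through a median of 14.3 to 21.6 CPM, and LKO females from 22.5 through 28.2 to 34.3 CPM. Gpat3 was the only member whose genotypes did not overlap in either sex. Groups did not overlap for 1.58% of all genes in females (1.02% with LKO above) and for 1.74% in males. The highest control, replicate 3 at 21.6 CPM, lay just under the lowest LKO female, also replicate 3, at 22.5 CPM.

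Gpat3 rose by 0.93 on the log2 scale in LKO females (SE 0.16, adjusted p = 0.0125), which is 1.91-fold. The call held without each of the 12 female libraries in turn, with log2 changes of 0.85 to 1.07. It was lost in the fit of all 23 samples, where the adjusted p was 0.0798 at a log2 change of 0.93. In males the controls measured 3.05, 7.05, 10.2, 13 and 13.4 CPM and the LKO mice 5.51, 11.1 and 14.2 CPM (lowest, median, highest), and the groups overlapped. The male log2 change was 0.12 (SE 0.32, adjusted p = 0.926). The female change minus the male change was 0.82 (SE 0.36, unadjusted p = 0.0347, adjusted p = 0.355), so the difference between the sexes did not pass the test.

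Markers of other cell types were read beside the rise of Gpat3. The sum of 5 cholangiocyte markers was 40.4 to 50.2 CPM in control females and 51.9 to 87.4 CPM in LKO females, with 5 of 5 markers higher and 1, Spp1, called. Spp1 made up most of that sum, at 34.9 to 41.6 CPM in control females and 44.2 to 77.4 CPM in LKO females. Krt7, Krt19, Epcam and Sox9 were each at or under 4.86 CPM in every female library. All 5 stellate and fibroblast markers were higher in LKO females with 0 called, and their sums overlapped, from 186 to 224 CPM in controls and from 156 to 286 CPM in LKO mice. Macrophage sums overlapped too, from 349 to 655 CPM in control females and from 462 to 655 CPM in LKO females. The part of these cells in the result was not tested.

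Gpat4 and Agpat1 had the next lowest p of this group and were chosen after their values were seen. Gpat4, another acyltransferase of the endoplasmic reticulum, ran from 133 through 193 to 222 CPM in control females and from 199 through 213 to 282 CPM in LKO females. It measured 179, 190.2, 224, 232 and 246 CPM in control males and 199.8 to 378 CPM with a median of 251 in LKO males. The genotypes overlapped in both sexes. The log2 change was 0.31 (SE 0.13, adjusted p = 0.252) in females and 0.29 (SE 0.15, adjusted p = 0.449) in males. Averaged over the sexes it was 0.30 (SE 0.10, unadjusted p = 0.00696, adjusted p = 0.17).

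Agpat1 ran from 17 through 20.5 to 24.6 CPM in control females and from 21.2 through 25.6 to 31 CPM in LKO females, with 4 LKO females above every control female. In males the controls measured 17.5, 20.8, 21, 23.5 and 24.2 CPM and the LKO mice 19.3 to 26.7 CPM with a median of 23. Agpat1 had log2 changes of 0.33 (SE 0.11, unadjusted p = 0.0109, adjusted p = 0.166) in females and 0.08 (SE 0.11) in males.

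Gpam, the mitochondrial glycerol-phosphate acyltransferase that directs acyl-CoA away from oxidation, was the 1 member of this group with a negative change in females. Control females ran from 83.2 through 134 to 257 CPM and LKO females from 95.3 through 124 to 131 CPM. The LKO values thus sat inside the control range. Control males measured 114, 189, 209.8, 263 and 284 CPM and LKO males 139.7, 195 and 272 CPM (lowest, median, highest). The log2 change of Gpam was -0.06 (SE 0.22) in males and -0.30 (SE 0.21, adjusted p = 0.53) in females, where it was -0.06 without control female 4.

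Agpat2, the main isoform of liver and fat, measured 341, 369, 383, 383 and 417 CPM in control males and 257 to 447 CPM in LKO males. Control females lay at 194 to 356 CPM and LKO females at 247 to 286 CPM, with the LKO range inside that of the controls. Its log2 change was -0.09 (SE 0.13) in males and 0.04 (SE 0.12) in females, and the female value turned to -0.03 without control female 2. Agpat3 was steady at 269 to 399 CPM over all libraries, and Agpat5 at 10.6 to 15.1 CPM. Agpat4 lay at 1.67 to 3.29 CPM in every library, where counts of 28 to 57 limit the precision.

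The lipins remove the phosphate from phosphatidate to give diacylglycerol. Lpin1 ran from 88.3 CPM in control female 4 through a median of 247 to 298 CPM in control females. In LKO females 5 of 6 lay at 42.9 to 111 CPM, and replicate 5 stood apart at 278 CPM, within the control range. The log2 change in females was -1.02 (SE 0.38, unadjusted p = 0.0175, adjusted p = 0.208), and without LKO female 5 it was -1.51 with an adjusted p of 0.0217, which would be a call. Control males measured 80.1, 86.7, 104, 133 and 199 CPM, and LKO males 69.6, 168 and 242 CPM (lowest, median, highest). The male log2 change was 0.45 (SE 0.30, adjusted p = 0.569), in the other direction. The female change minus the male change was -1.46 (SE 0.53, unadjusted p = 0.0115, adjusted p = 0.278).

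Lpin2 measured 206, 256, 271, 291 and 319.8 CPM in control males and 212, 263 and 416 CPM (lowest, median, highest) in LKO males. In females the same 3 values were 295, 399 and 453 CPM in controls and 198, 317 and 456 CPM in LKO mice. The genotypes overlapped in both sexes, with log2 changes of 0.08 (SE 0.17) in males and -0.26 (SE 0.16) in females. The female value was -0.16 without LKO female 3. Lpin3 was the least abundant lipin, at 3.7 to 9.96 CPM, and was 1 of the 2 members with an unadjusted p under 0.05 in males.

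At the final step, Dgat2, the diacylglycerol acyltransferase tied to newly made fatty acids, measured 693, 696, 738, 795 and 928 CPM in control males and 692 to 837 CPM with a median of 785 in LKO males. Control females ran from 864 through 1044 to 1232 CPM and LKO females from 859.5 through 960.1 to 1048 CPM. The ranges overlapped in both sexes. The log2 change was 0.00 (SE 0.10) in males and -0.13 (SE 0.10, adjusted p = 0.583) in females, where it was -0.08 without control female 4.

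Dgat1, the isoform that also re-esterifies incoming fatty acids, was tightly held in control females, at 33.3 to 34.5 CPM. LKO females spread on both sides of that band, 3 below and 3 above it, from 28.7 to 37.2 CPM. Control males measured 31, 37.7, 40, 41 and 42.5 CPM and LKO males 30.3 to 38.6 CPM with a median of 34.8. Dgat1 had log2 changes of -0.15 (SE 0.10) in males and -0.03 (SE 0.07, adjusted p = 0.89) in females.

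Pnpla3, a lipid-droplet protein whose gene is a known SREBP-1c target, was chosen after its values were seen. It lies on chromosome 15 from 84052038 to 84071437 in the coordinates of the tables. Control females measured 3.63 to 10.6 CPM apart from replicate 2 at 22.8 CPM, with a median of 7.7, and LKO females 1.84, 3.36 and 5.54 CPM (lowest, median, highest). All 6 LKO females were under the control female median and 3 were under every control female. The log2 change was -1.52 (SE 0.40) in females, with an adjusted p of 0.0761 by edgeR and 0.0336 by DESeq2, and it was -1.07 without control female 2. Without control female 3, edgeR called it at -1.68 (adjusted p = 0.0364). Control males measured 2.57, 4.27, 4.95, 5.88 and 6.74 CPM, and LKO males ran from 0.186 CPM in replicate 5, which rests on 3 counts, to 4.81 CPM. The male log2 change was -0.80 (SE 0.45, adjusted p = 0.494).

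Mogat1, a monoacylglycerol acyltransferase of fatty liver, ran from 0.261 through 1.35 to 2.08 CPM in control females and from 1.04 through 2.55 to 3.95 CPM in LKO females. Counts were as low as 4 in control females. In females the log2 change of Mogat1 was 1.01 (SE 0.45, adjusted p = 0.297). In males the controls measured 6.93, 7.93, 7.96 and 8.28 CPM and, in replicate 4, 0.883 CPM, and LKO males 1.61 to 9.64 CPM, a log2 change of -0.15 (SE 0.45). Mogat2 had at most 25 counts in any library and was not tested in females.

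**Figure D3:**
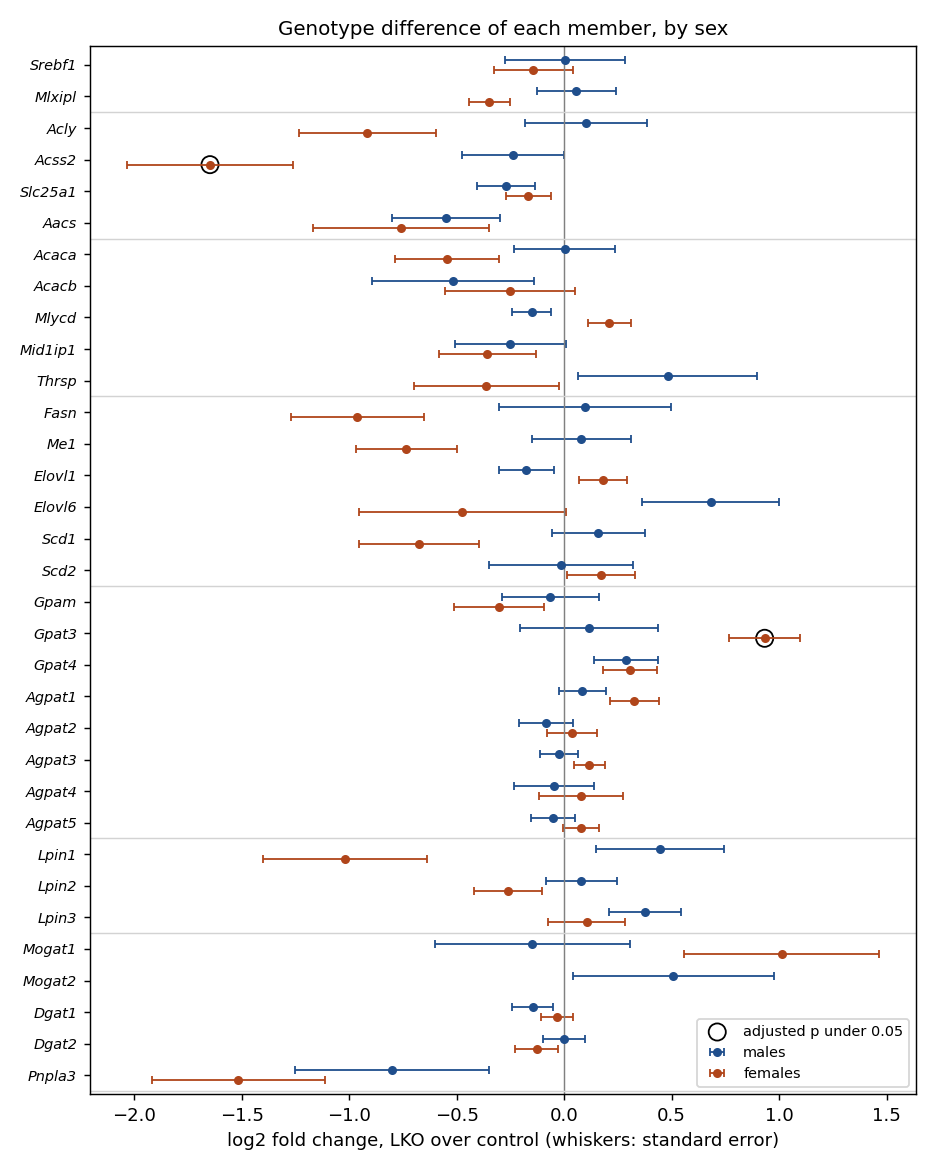
Log2 fold change of each member, LKO over control, in males (blue) and females (orange) from edgeR, with whiskers of 1 SE, members grouped by role and circles around values with an adjusted p under 0.05. The circled values are Gpat3 at 0.93 and Acss2 at -1.65 in females, no male value is circled, and Mogat2 has no female value because it was not tested there.

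Over the whole list, the members had 12 positive and 20 negative log2 changes in females, with a median of -0.21 beside 0.01 for all genes tested. In males the counts were 16 and 17, with a median of -0.00052 beside 0.01. Each liver's median member deviation from the control mean, in log2(CPM + 1), ran from -0.16 to 0.23 in control females. It ran from -0.27 to 0.14 in LKO females, so most of the 2 ranges overlapped. The SD of this deviation between replicates was 0.16. Leaving out control female 4 moved the female median furthest, to -0.07, and it was -0.13 without LKO female 5 or 6. Without control female 2 the female median was -0.12, the calls were still Gpat3 and Acss2, and 10 members in place of 13 had an unadjusted p under 0.05 (3 higher and 7 lower). The authors' deposited table has an adjusted p under 0.05 for 0 members in males and 5 in females. In the authors' deposited table these are Gpat3 at a log2 change of 0.93, Acss2 at -1.65, Pnpla3 at -1.52, Me1 at -0.74 and Mlxipl at -0.35. DESeq2 called the same 5 members in females and 0 in males, beside 3.9% and 0.768% of all genes that edgeR tested. For these 5 members it gave the same log2 changes and adjusted p as the authors' deposited table. Its calls are therefore not a separate check of that table.

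Averaged over the sexes, 0 of 33 members were called by edgeR, where 0.545% of all genes were. DESeq2 called 2, Acss2 and Pnpla3, beside 2.21% of all genes. Acss2 had an averaged log2 change of -0.94 (SE 0.25, adjusted p = 0.0752) and Pnpla3 one of -1.16 (SE 0.32, adjusted p = 0.0949). The averaged change of Acss2 was -0.63 without control female 2. An unadjusted p under 0.05 was found for 7 members, beside 14.8% of all genes. The other 5 were Gpat3 at 0.53, Gpat4, Agpat1 at 0.21, Slc25a1 and Aacs at -0.65.

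For the genotype by sex interaction, edgeR called 0 members and 0% of all 14503 genes tested, and DESeq2 called 0 members and 0.607% of all genes. At an unadjusted p under 0.05 there were 7 members, beside 12.9% of all genes. They were Acss2, Lpin1, Mlycd and Gpat3 with the values above, Me1 at -0.82, Scd1 at -0.83 and Acly at -1.02, each as the female change minus the male change. The difference for Me1 was -0.53 without control female 2. No member was therefore shown to respond differently in the sexes.

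The control mice also allow a comparison of the sexes without the ablation. Sex coincides with the deposited table, so sex and table cannot be told apart here. In this comparison edgeR called 7 members, 3 higher and 4 lower in females, beside 18% of all genes tested (8.8% higher and 9.19% lower). DESeq2 called 10, beside 20.9%. Elovl1 was lower in control females by a log2 difference of -0.85 (SE 0.10, adjusted p = 0.000154), and its ranges, 31 to 42.5 CPM in females and 53.5 to 74.9 CPM in males, did not overlap. Agpat2 at -0.54 (SE 0.13, adjusted p = 0.0127) and Slc25a1 at -0.46 (SE 0.11, adjusted p = 0.015) were also lower in control females. The sexes did not overlap for Slc25a1, with females at 278 to 379.7 CPM and males at 386 to 572 CPM, and overlapped for Agpat2. The share of all genes whose sexes did not overlap was not counted, so whether this is unusual for Elovl1 and Slc25a1 is not known. Mogat1 was lower by a log2 difference of -2.38 (SE 0.55, adjusted p = 0.0108), with control male 4 at 0.883 CPM inside the female range.

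The called members that were higher in control females were Lpin2 at 0.51 (SE 0.13, adjusted p = 0.0164), Dgat2 at 0.44 (SE 0.12, adjusted p = 0.023) and Lpin1 at 0.92 (SE 0.29, adjusted p = 0.0451). The call of Lpin1 was lost without control male 1, 2, 3 or 4 and without control female 1, 2, 3, 5 or 6, with adjusted p of 0.0502 to 0.103. The call of Dgat2 was lost without control male 1, 2 or 3, with adjusted p of 0.0546 to 0.0557. That of Lpin2 was lost with library size alone as the scaling, at an adjusted p of 0.052.

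**Figure D4:**
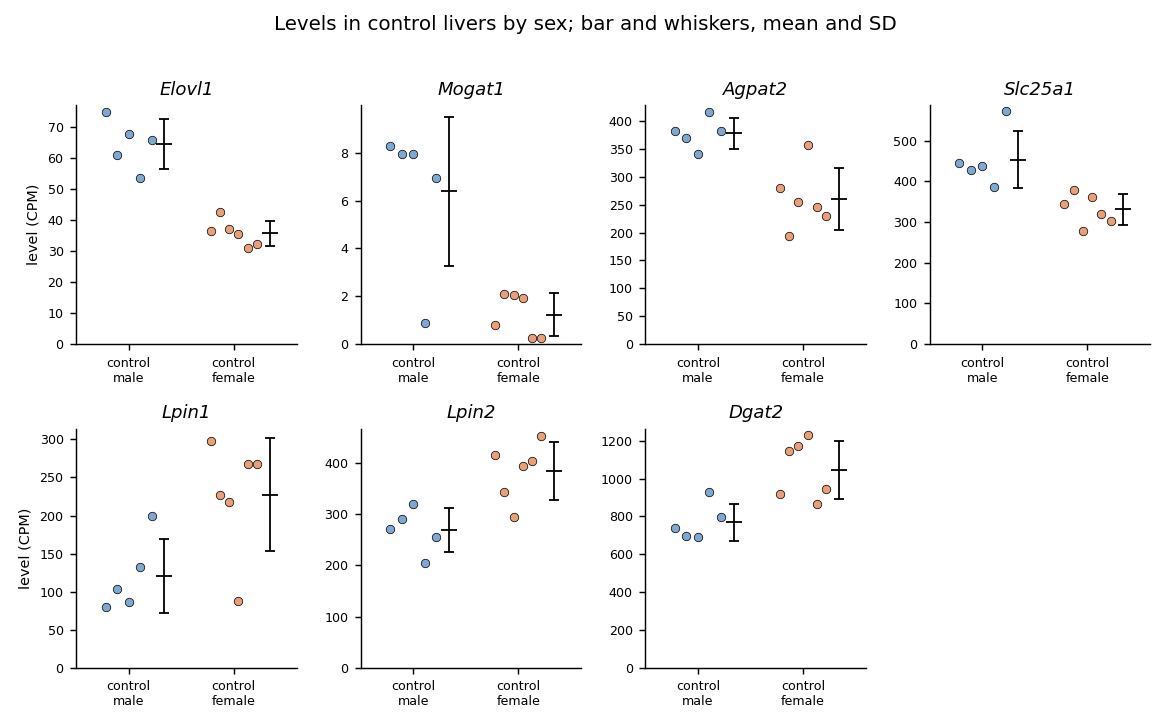
CPM of the 7 members called between control females and control males, on linear axes that start at 0, with 1 point per mouse and the mean and SD of each group as bar and whiskers. Elovl1 and Slc25a1 show no overlap between the sexes, and control male 4 at 0.883 CPM lies among the females for Mogat1. The share of all genes without such overlap was not counted.

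A list of 26 further genes covers the control of the pathway: SREBP processing and LXR, partners of the regulators, upstream sugar handling, NADPH supply and insulin signalling. None of the 26 was called by edgeR in males, in females or averaged over the sexes, and DESeq2 called 1, Scap, in females, where it called 3.9% of all genes. At an unadjusted p under 0.05 there were 1 in males, 5 in females and 6 in the average, beside 12.5%, 15.6% and 14.8% of all genes. All of them had lower values in LKO mice. The log2 changes were negative for 22 of 26 in females and 14 of 26 in males, with medians of -0.12 and -0.04.

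By rule, the 3 with the lowest p in the average are named. Usf2, a factor that binds E-boxes at lipogenic promoters, ran from 63.9 through 72 to 85.8 CPM in control females and from 47.8 through 59.5 to 78.5 CPM in LKO females, an averaged log2 change of -0.26 (SE 0.08, adjusted p = 0.141). Srebf2, the gene of the cholesterol regulator SREBP-2, ran from 49 through 59.1 to 64.7 CPM and from 42.4 through 49.7 to 57.3 CPM in the same groups, an averaged change of -0.24 (SE 0.08, adjusted p = 0.156). Scap, the escort that carries SREBPs to their activating proteases, ran from 113 through 145 to 173 CPM and from 95.9 through 108 to 122 CPM. Its averaged change was -0.23 (SE 0.08, adjusted p = 0.198), with -0.41 in females (adjusted p = 0.0648 by edgeR and 0.0096 by DESeq2) and -0.06 in males. The genotypes overlapped for all 3 genes in both sexes.

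The coefficient of variation of a member's CPM within a group was higher in controls than in LKO mice for 21 of 32 members in females, beside 45.2% of all genes, and for 16 of 33 in males, beside 59% of all genes. Without control female 2 it was higher in controls for 19 of 32 members, beside 43.5% of all genes.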

How the data were processed

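Poly-A selected liver RNA was sequenced, per the labels' protocols, which describe random priming and dUTP. HISAT2 2.0.5 and mm39 are named, with no role, in the submitters' processing notes, and the counting is not given in the sources used here. Whether it used strand is not stated, so overlapping genes are uncertain. Per the file headers, the authors deposited 1 table per sex with raw counts, normalized counts (a signal: the count over 1 size factor per sample), FPKM, and their own log2 fold changes and p-values. The raw counts were tested, and the deposited signal and FPKM values were not used for tests. The log2 changes and adjusted p-values of the authors' deposited table are quoted by name.

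Genes were kept by filterByExpr and tested with edgeR 4.0.16 in R 4.3.3 (TMM factors, quasi-likelihood test, Benjamini-Hochberg adjustment over all genes tested). The standard error is the log2 change divided by the root of the F statistic. Each sex was fitted alone. The average and the interaction used all 23 samples, and the sex comparison the 11 controls. The 2 tables' counts were taken to be comparable between sexes, and CPM were set on 1 scale across them. Alternatives were RLE factors, library size alone, no filter, a minimum of 10 counts per library, the Wald test of DESeq2 1.42.0, a replicate block, all 23 samples in the fit, and each sample left out. No libraries were identical. The procedure was tested on simulated data with log2 changes of 2 up or down, larger than any member's genotype change. That simulation does not show how well changes of the size seen here are found.

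The members and lists were chosen with earlier results of these data known. Values are given for 11 core members, for each member called in any comparison and for each whose genotypes did not overlap. Me1, Pnpla3, Agpat1, Gpat4, Aacs and Mlycd were added after their values were seen. Of marker lists for 10 cell types, only Spp1 was called between genotypes, in females. Sums of T cell, B cell, endothelial, acinar and muscle markers overlapped between genotypes in both sexes. RefSeq promoters are on GRCm38.p6, another build than the tables, so their coordinates are not compared. No sample column was left unmapped.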

Additional observations from a re-analysis of the deposited data

Results flagged for a closer look

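In 10 of 132 sets of member values within a group, 1 library stood apart from the rest by more than the critical ratio of its gap to the range allows. Chance flags about 1 in 20 such groups, and members of a pathway are not independent. Control female 2 accounts for 4 of the 10. It had the highest value of its group for Acss2 at 505 CPM (others 68.6 to 161), for Acacb at 379 CPM (others 98.1 to 192), for Acaca at 230.5 CPM (others 73 to 129) and for Pnpla3 at 22.8 CPM (others 3.63 to 10.6). Its total count lay within the range of the other libraries. The changes of Acss2, Acaca and Pnpla3 without this library are given with those genes, and that of Acacb was not recomputed without it.

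The other 6 were spread over 5 libraries. Lpin1 was highest in LKO female 5 at 278 CPM, against 42.9 to 111 CPM in the other LKO females. Mogat1 was lowest in control male 4 at 0.883 CPM, against 6.93 to 8.28 CPM. LKO male 4 had the highest Gpat4 of its group at 378 CPM (others 199.8 to 266) and the lowest Lpin3 at 6.76 CPM (others 8.76 to 9.96). Mid1ip1 was highest in control female 4 at 79.7 CPM (others 36.7 to 51.9), and Scd2 was lowest in LKO female 1 at 5.41 CPM (others 7.76 to 8.92).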

How the results depend on the processing

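The count of members called in females was 2 in the analysis reported. It was 1 with library size alone and 1 with at least 10 counts in every sample, Gpat3 in both. It was 1, Acss2, in the fit of all 23 samples, 5 with DESeq2 and 5 with the replicate block. Leaving out each library in turn gave 1 to 3, and 1 without control female 5 or 6 or LKO female 1, 2, 3, 4 or 6. In the average over the sexes, 0 became 2 with DESeq2, 1 with the replicate block and 0 to 1 with a library left out (Acss2 without control female 3, adjusted p = 0.0328). The samples were not treated as paired, since not every same-numbered pair correlated above 0.1. The correlations ran from -0.377 to 0.417 in males, with 1 of 5 pairs above 0.1 and 1 of 5 samples closest to its own number, and from -0.013 to 0.183 in females, with 5 of 6 and 4 of 6. The replicate block in females called Me1 (adjusted p = 0.0368), Pnpla3 (0.0138), Gpat3 (0.0188), Agpat1 (0.0433) and Acss2 (0.0367). The medians over the members stayed within the replicate spread. Of 1402 alternative fits of 69 gene values, 1327 kept direction and side of the threshold, 25 lost a call, 13 gained one and 37 changed sign. Every sign change was in a gene not called in the comparison concerned, though some, such as Gpat3 in males, were called in another.

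Sign changes in males were Acaca with RLE factors (-0.000435) and DESeq2 (-0.0016), Dgat2 with library size alone (0.064), at least 10 counts (0.00344) and all 23 samples (0.000821), and Gpam with the replicate block (0.069). In females Dgat1 with library size alone gave 0.0135. With a library left out, male log2 changes ran from -0.17 to 0.21 for Srebf1, -0.051 to 0.16 for Mlxipl, -0.028 to 0.29 for Acly, -0.13 to 0.14 for Acaca, -0.092 to 0.31 for Fasn, -0.081 to 0.20 for Me1, -0.22 to 0.068 for Gpam, -0.10 to 0.28 for Gpat3, -0.058 to 0.16 for Lpin2, -0.027 to 0.072 for Dgat2 and -0.42 to 0.043 for Mogat1. Female values ran from -0.035 to 0.14 for Agpat2 and -0.069 to 0.0083 for Dgat1. The cause was not tested. Depth limits Mogat1, Mogat2, Pnpla3 and Agpat4, which had under 100 counts in many libraries. Lpin3, Scd2 and, in males, Gpat3 were also at only a few CPM in some libraries, so depth limits these too.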
